A study of Mus musculus with 4 samples.

Results

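The D cyclins Ccnd1, Ccnd2 and Ccnd3, the cyclin-dependent kinase (CDK) inhibitors Cdkn1a, Cdkn1b, Cdkn1c and Cdkn2c, and the pocket proteins Rb1, Rbl1 and Rbl2 were examined in muscle stem cells (MuSCs) of overloaded and sham-operated plantaris muscle. The members were the 10 of 19353 genes in the count table that carry these names. All libraries came from Pax7-CreERT2:Rosa-YFP mice, in which tamoxifen lets a Cre expressed from the Pax7 gene switch on yellow fluorescent protein (YFP), so that YFP marks cells that had expressed Pax7 together with their progeny. YFP-positive cells were sorted at 100 cells per tube at 4 days after tenotomy, in which the Achilles tendon is cut so that the plantaris takes up the load, or after sham surgery. RNA was measured by CEL-Seq2, which tags each captured poly(A) end with a random barcode (unique molecular identifier, UMI), and distinct UMIs were counted, so that levels of different genes can be set side by side without scaling by length. There were 2 sham libraries, with 269683 and 260488 UMIs, and 2 tenotomy libraries, with 387955 and 483528 UMIs. The age of the mice is not given in the labels. The sources do not say whether replicate libraries were made from different mice, so p-values measure only the spread between these libraries, which may be technical.

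Cells decide in G1 phase whether to divide. Mitogens raise the D cyclins, which bind the kinases CDK4 and CDK6 and start the phosphorylation of the pocket proteins, and pocket proteins that are not phosphorylated hold E2F transcription factors and their S phase genes off. The Cip/Kip inhibitors p21 (Cdkn1a), p27 (Cdkn1b) and p57 (Cdkn1c) bind cyclin-CDK complexes, and the Ink4 inhibitor p18 (Cdkn2c) binds CDK4 and CDK6 themselves. In skeletal muscle these inhibitors are known for holding stem cells out of division and for the permanent cell cycle exit of differentiating myoblasts.

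The sorted cells carried MuSC transcripts. Pax7, the transcription factor that defines MuSCs, had 118 and 107 UMIs in the sham libraries and 108 and 137 in the tenotomy libraries, and Myf5, a myogenic factor of committed MuSCs, had 244, 168, 388 and 467 in the same order. All 6 genes of a cycling cell list were called higher after tenotomy, beside 25.8% of all tested genes. With abundance offsets 5 of the 6 were called higher, but all 6 passed the filter on low counts through the tenotomy libraries only. Their summed level went from a summed level of 13.1 and 49.8 CPM (counts relative to the library total, with libraries scaled by the TMM method of edgeR) to 957 and 934 CPM. Of this list, the DNA topoisomerase Top2a was the most abundant, with 2 and 6 UMIs in the sham libraries and 124 and 176 UMIs in the tenotomy libraries. On the TMM scale Pax7 was lower after tenotomy, at 514 and 485 CPM in sham and 281 and 277 CPM in tenotomy (log2 fold change -0.84). Other scalings of Pax7 are given with the markers below. In a lysate of pooled cells, more cells that express a gene and more RNA per cell cannot be told apart.

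Across the members the change was not in 1 direction. In the comparison of tenotomy with sham by the quasi-likelihood test of edgeR, with Benjamini-Hochberg adjusted p-values over 7228 genes and a threshold of 0.1, 7 of the 10 members had enough counts to be tested. Of these, 3 rose (Ccnd1, Ccnd2 and Cdkn2c), where 25.8% of all tested genes rose. Cdkn1a alone fell by this test, where 26.3% of all tested genes fell, and its direction turned when counts per tube were compared without scaling and when abundance offsets were used. Cdkn1b, Cdkn1c and Rb1 did not pass the threshold. The 4 members called of 7 stand beside 52.1% of all tested genes called in either direction, and the 5 of 7 whose tenotomy and sham levels did not overlap stand beside 72.9%. Neither count sets the members apart from the other tested genes. Ccnd3, Rbl1 and Rbl2 were below the filter on low counts and are given as counts.

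**Figure D1:**
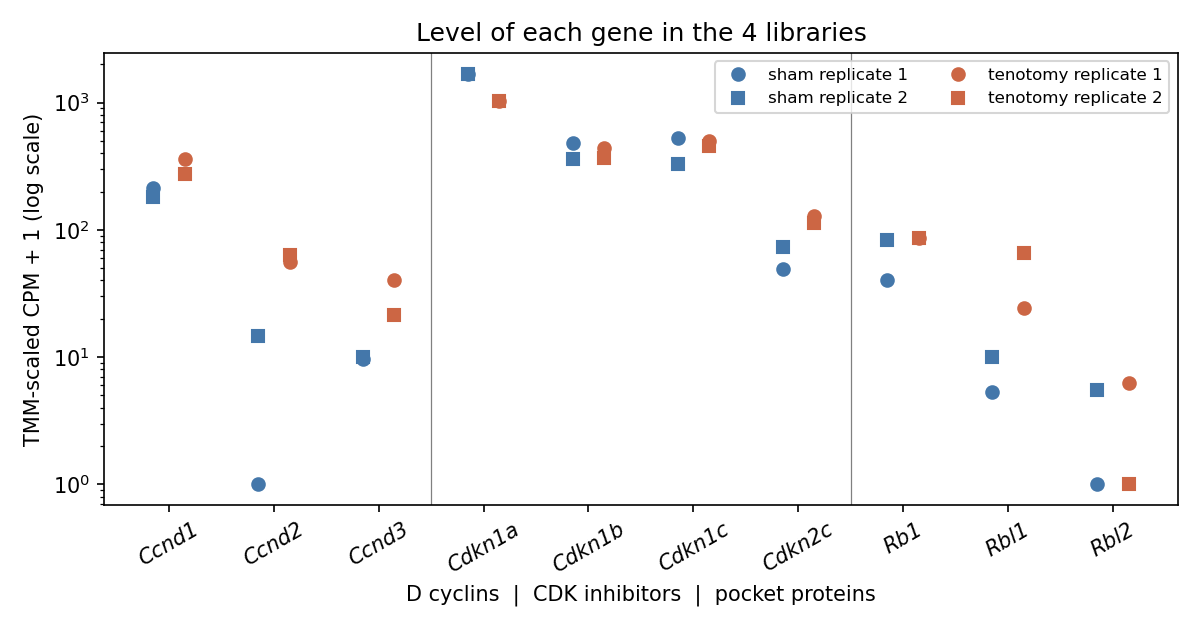
Level of the 10 genes in each library, as TMM-scaled CPM plus 1 on a log axis, with sham libraries in blue and tenotomy libraries in orange and a grey line between the families. Cdkn1a is the highest in every library and Rbl2 the lowest, level with Ccnd2 at 0 in sham replicate 1, and the 2 tenotomy values of Ccnd1, Ccnd2, Ccnd3, Cdkn2c, Rb1 and Rbl1 both lie above the 2 sham values.

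Of the D cyclins, Ccnd1, the form most widely induced by growth factors, was the most abundant in every library. Ccnd1 (ENSMUSG00000070348; GRCm38 chr7:144929931-144939925, minus strand, up to 5 exons) had 49 and 40 UMIs in the sham libraries and 139 and 135 UMIs in the tenotomy libraries. Its levels were 213 and 181 CPM in sham and 361 and 273 CPM in tenotomy, so both tenotomy libraries were above both sham libraries. Ccnd1 rose by a log2 fold change of 0.67 (SE 0.21, 95% confidence interval 0.24 to 1.10, adjusted p = 0.014). Without sham replicate 2 the log2 fold change was 0.56 with an adjusted p of 0.10, above the threshold, and DESeq2 gave 0.69 with an adjusted p of 0.10, also above it.

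Ccnd2, a D cyclin also known from proliferating lymphoid and muscle precursor cells, was nearly absent from the sham libraries. Ccnd2 (ENSMUSG00000000184; GRCm38 chr6:127125162-127152193, minus strand) had 0 and 3 UMIs in sham and 21 and 31 UMIs in tenotomy, which are levels of 0, 13.6, 54.6 and 62.8 CPM. The groups did not overlap, and Ccnd2 rose at an adjusted p of 0.0012. Among the 7 tested members Ccnd2 was the 1 that passed the filter on low counts through the tenotomy libraries only, where it is high, so that the filter itself selected for a difference. Its fitted log2 fold change of 3.08 (SE 0.66) depends on the prior count because 1 sham library is at 0, and the ratio of summed counts, scaled by the TMM library sizes, was 8.89 (95% exact interval 2.88 to 44.5, counting error only). Without sham replicate 1, the library with no Ccnd2 UMI, that ratio was 4.36 (1.41 to 21.8). With abundance offsets the log2 fold change of Ccnd2 was 0.71, which did not pass (adjusted p = 0.54).

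Ccnd3, a D cyclin known to accumulate in differentiating myoblasts, had 2 UMIs in each sham library and 15 and 10 UMIs in the tenotomy libraries. Ccnd3 (ENSMUSG00000034165; GRCm38 chr17:47505051-47599691, plus strand) had levels of 8.71 and 9.06 CPM in sham and 39.0 and 20.3 CPM in tenotomy, and the groups did not overlap. The ratio of its summed counts was 3.21 (1.11 to 12.7), and without tenotomy replicate 1 it was 2.28 (0.66 to 9.96). A test with no filter on low counts gave an adjusted p of 0.060, and DESeq2 gave 0.30. A filter that asks for 10 or more counts in each library of 1 group gave 0.046, but Ccnd3 passed it through the tenotomy libraries only, where it is high.

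Together the D cyclins held 51 and 45 UMIs in the sham libraries and 175 and 176 UMIs in the tenotomy libraries, and the make-up of the family differed. Ccnd1 was 96.1% of D cyclin UMIs in sham replicate 1 (95% Clopper-Pearson interval 86.5 to 99.5) and 88.9% in sham replicate 2 (75.9 to 96.3). It was 79.4% in tenotomy replicate 1 (72.7 to 85.2) and 76.7% in tenotomy replicate 2 (69.8 to 82.7). The share of Ccnd2 was 0% (up to 6.98%) and 6.67% (1.40 to 18.3) in sham, against 12.0% (7.58 to 17.8) and 17.6% (12.3 to 24.1) in tenotomy. Both tenotomy libraries thus held a lower share of Ccnd1 and a higher share of Ccnd2 than either sham library, although the intervals of sham replicate 2 overlapped those of tenotomy. With 2 libraries against 2, the exact two-sided permutation test cannot give a p below 0.333, so no share was tested, and the intervals cover counting error only.

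**Figure D2:**
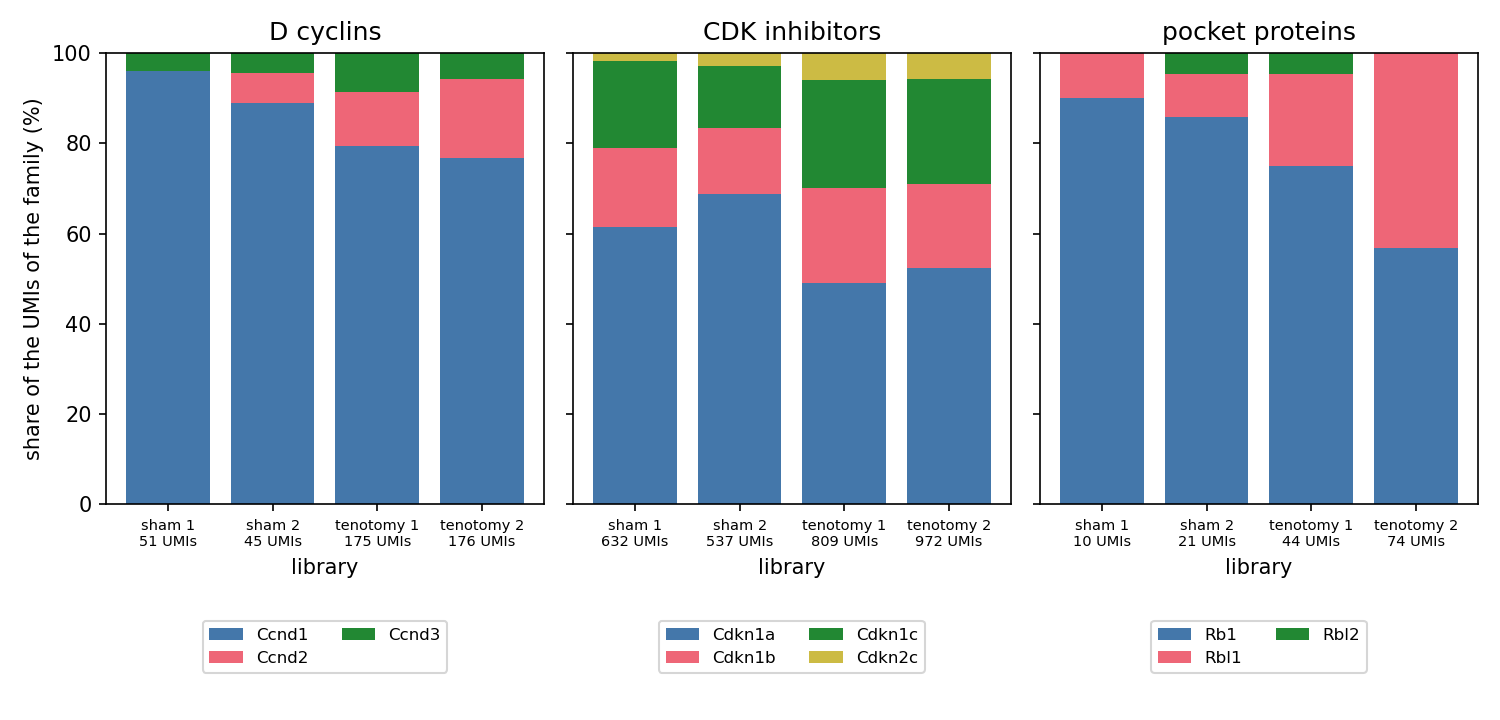
Share of each gene in the UMIs of its family (percent), for each library, with the number of UMIs of the family under each bar. Ccnd1 and Rb1 take a smaller part of their families in each tenotomy library than in either sham library, and Cdkn1a takes 61.6% and 68.7% of inhibitor UMIs in sham and 49.1% and 52.4% in tenotomy.

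Summed over the family, the inhibitors held 632 and 537 UMIs in the sham libraries and 809 and 972 UMIs in the tenotomy libraries. These sums were far above those of the D cyclins, although Cdkn2c had fewer UMIs than Ccnd1 in every library. Cdkn1a, which encodes p21, a target of p53 and of MyoD that inhibits CDK2 complexes, ranked 19 of 19353 genes by mean CPM over the 4 libraries. Cdkn1a (ENSMUSG00000023067; GRCm38 chr17:29090976-29100727, plus strand) had 389 and 369 UMIs in the sham libraries and 397 and 509 UMIs in the tenotomy libraries. On the TMM scale its levels were 1693 and 1672 CPM in sham and 1032 and 1031 CPM in tenotomy. The UMIs per tube were therefore as many or more after tenotomy, while the part of the library taken by Cdkn1a was smaller in both tenotomy libraries. Cdkn1a fell by 0.71 on the log2 scale (SE 0.15, 95% confidence interval of the change -1.03 to -0.38, adjusted p = 0.0014), but its log2 fold change was 0.26 (adjusted p = 0.12) when counts per tube were compared without scaling and 0.39 (adjusted p = 0.015) with abundance offsets.

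Unscaled counts moved the median log2 fold change of all tested genes to 1.01 from 0.051 under TMM. Relative to that median, Cdkn1a was lower by much the same amount, -0.75 for counts per tube and -0.76 under TMM. Abundance offsets, a smooth curve per library that removes any trend of the log ratio with abundance, kept the median at 0.015, and Cdkn1a stood at 0.38 relative to it. Leaving out any 1 library kept the log2 fold change of Cdkn1a between -0.71 and -0.69, each below an adjusted p of 0.1.

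**Figure D3:**
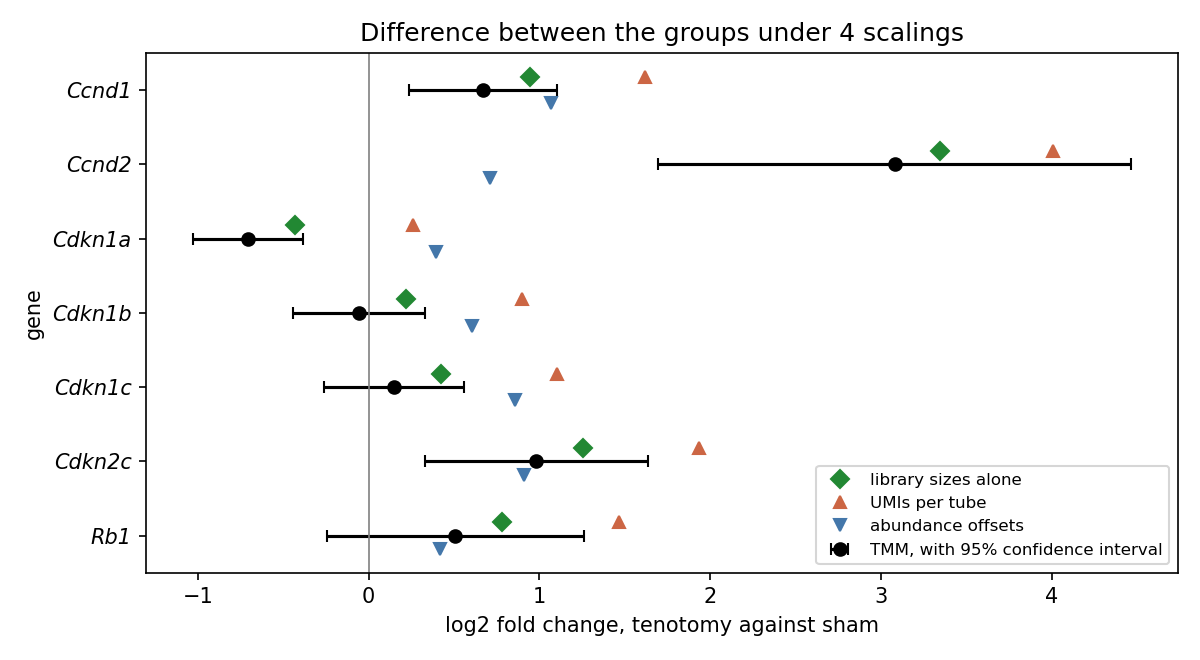
Log2 fold change of tenotomy against sham for the 7 tested members under TMM (black, with the 95% confidence interval), library sizes alone (green diamonds), UMIs per tube (orange triangles) and abundance offsets (blue triangles). Ccnd1, Ccnd2, Cdkn1c, Cdkn2c and Rb1 lie above 0 under all 4, whereas Cdkn1a is below 0 under TMM and library sizes alone and above 0 under the other two, and Cdkn1b is below 0 under TMM only.

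Cdkn1b and Cdkn1c, the other Cip/Kip inhibitors, did not pass the threshold. Cdkn1b (ENSMUSG00000003031; GRCm38 chr6:134920401-134925513, plus strand), which encodes p27, had 110 and 79 UMIs in sham and 170 and 182 UMIs in tenotomy, or 479, 358, 442 and 369 CPM. Its tenotomy levels lay inside the range of the sham levels, with a log2 fold change of -0.055 (SE 0.18, 95% confidence interval -0.44 to 0.33, adjusted p = 0.83). The sign of this value turned under 7 alternatives, and Cdkn1b passed the threshold as higher in counts per tube (0.90, adjusted p = 0.0014) and with abundance offsets (0.61, adjusted p = 0.0048). Relative to the median of all tested genes, Cdkn1b was at -0.11 under TMM, at -0.12 in counts per tube, where that median is 1.01, and at 0.59 with abundance offsets.

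Cdkn1c (ENSMUSG00000037664; GRCm38 chr7:143458339-143461050, minus strand), which encodes p57 and is expressed from the maternal allele in an imprinted region, had 122 and 73 UMIs in sham and 193 and 226 UMIs in tenotomy, or 531, 331, 502 and 458 CPM. The 2 sham libraries lay on either side of both tenotomy libraries. The log2 fold change was 0.15 (SE 0.19, 95% confidence interval -0.26 to 0.56, adjusted p = 0.56), and without sham replicate 2 it was -0.15 (adjusted p = 0.69). Cdkn1c passed the threshold as higher with library sizes alone (0.42, adjusted p = 0.059), in counts per tube (1.10, adjusted p = 5.0e-04) and with abundance offsets (0.86, adjusted p = 3.9e-04). Relative to the median of all tested genes, Cdkn1c was at 0.097 under TMM, 0.096 with library sizes alone, 0.091 in counts per tube and 0.84 with abundance offsets. The intervals of Cdkn1b and Cdkn1c leave room for a change of up to 0.56 on the log2 scale.

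Cdkn2c (ENSMUSG00000028551; GRCm38 chr4:109660876-109667189, minus strand), which encodes p18, rose. It had 11 and 16 UMIs in sham and 49 and 55 UMIs in tenotomy, or 47.9, 72.5, 127 and 111 CPM, with both tenotomy libraries above both sham libraries. The log2 fold change of Cdkn2c was 0.98 (SE 0.31, 95% confidence interval 0.33 to 1.63, adjusted p = 0.016). It was above 0 under every scaling tried, but without sham replicate 1 it was 0.71 (adjusted p = 0.15), after thinning all libraries to the smallest it was 0.76 (adjusted p = 0.11), and DESeq2 gave an adjusted p of 0.15. Cdkn2c was the least abundant of the 4 inhibitors among the members, with 1.74% and 2.98% of their UMIs in sham and 6.06% and 5.66% in tenotomy.

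Cdkn1a and Cdkn2c moved in opposite directions on the TMM scale, although Cdkn1a turned under the 2 scalings given above. Their promoters are shown for that reason, as 300-base windows from RefSeq (GRCm38.p6) with 250 bases before and 50 after a start, written 5′ to 3′ in the direction of the gene. Capitals mark the GC box GGGCGG, searched on both strands, which is in 35.9% of 32544 such windows.
Cdkn1a, second of 2 starts, chr17:29093519-29093818, plus strand: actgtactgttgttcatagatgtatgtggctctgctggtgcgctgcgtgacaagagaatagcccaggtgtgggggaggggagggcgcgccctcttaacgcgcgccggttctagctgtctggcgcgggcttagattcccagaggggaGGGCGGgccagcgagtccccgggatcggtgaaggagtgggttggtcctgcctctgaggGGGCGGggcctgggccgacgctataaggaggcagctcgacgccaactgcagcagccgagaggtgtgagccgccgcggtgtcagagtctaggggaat
Cdkn2c, first of 2 starts, chr4:109666707-109667006, minus strand: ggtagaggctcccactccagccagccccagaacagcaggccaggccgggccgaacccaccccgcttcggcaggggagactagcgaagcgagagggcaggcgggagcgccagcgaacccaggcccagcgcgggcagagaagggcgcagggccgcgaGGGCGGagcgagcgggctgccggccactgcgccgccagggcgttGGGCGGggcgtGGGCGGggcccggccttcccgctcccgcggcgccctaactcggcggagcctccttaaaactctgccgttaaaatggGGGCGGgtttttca
The Cdkn1a window holds 2 GC boxes and the Cdkn2c window 4, and their GC contents are 64.7% and 73.3%. The other start of Cdkn1a (chr17:29090729-29091028) and the other start of Cdkn2c (chr4:109665323-109665622) hold none. Neither gene's windows held an exact match to the E2F strings searched (TTTCCCGC, TTTGGCGC, TTTCGCGC or TTTGCCGC) or to TATAAA. Shorter or looser forms of the E2F motif were not searched. A match is a string of letters and was not tested as a binding site.

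Because a ratio of UMIs within 1 library does not change when the library is scaled by 1 factor, inhibitor UMIs were also set against D cyclin UMIs. There were 12.4 and 11.9 inhibitor UMIs per D cyclin UMI in sham and 4.62 and 5.52 in tenotomy. For Cdkn1a per Ccnd1 UMI the values were 7.94 and 9.23 in sham and 2.86 and 3.77 in tenotomy. Both ratios were lower in each tenotomy library than in each sham library, and inhibitor UMIs still outnumbered D cyclin UMIs in all 4 libraries. These are ratios of transcripts, and the amounts of the proteins were not measured here. Abundance offsets do act on such a ratio, since they differ between genes of different levels, and with them the log2 fold changes were 0.39 for Cdkn1a and 1.07 for Ccnd1, in place of -0.71 and 0.67.

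The pocket proteins were the least abundant family, with 10 and 21 UMIs in the sham libraries and 44 and 74 UMIs in the tenotomy libraries. Rb1 (ENSMUSG00000022105; GRCm38 chr14:73183673-73325822, minus strand), the retinoblastoma protein, had 9 and 18 UMIs in sham and 33 and 42 UMIs in tenotomy, or 39.2, 81.5, 85.8 and 85.1 CPM. Both tenotomy values were above both sham values, but sham replicate 2 lay close to them. Rb1 did not pass the threshold, with a log2 fold change of 0.51 (SE 0.36, 95% confidence interval -0.25 to 1.26, adjusted p = 0.26). Its value was set by which sham library was kept, at 0.07 without sham replicate 1 and 1.12 (adjusted p = 0.065) without sham replicate 2.

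Rbl1 (ENSMUSG00000027641; GRCm38 chr2:157145893-157204534, minus strand), which encodes p107, the pocket protein that accumulates in cycling cells, had 1 and 2 UMIs in sham and 9 and 32 UMIs in tenotomy. Its levels were 4.35, 9.06, 23.4 and 64.8 CPM, so the groups did not overlap but the tenotomy libraries differed from each other by a larger factor than for any member but Rbl2. The ratio of summed counts was 7.01 (95% exact interval 2.24 to 35.4), and without tenotomy replicate 2 it was 3.51 (0.88 to 20.2). A test with no filter on low counts gave Rbl1 an adjusted p of 4.6e-04, and DESeq2 gave 0.077. Rbl1 was 10% (0.25 to 44.5) and 9.52% (1.17 to 30.4) of pocket protein UMIs in sham, and 20.5% (9.80 to 35.3) and 43.2% (31.8 to 55.3) in tenotomy. The interval of sham replicate 1 overlapped those of both tenotomy libraries, and that of sham replicate 2 overlapped that of tenotomy replicate 1 only. Its promoter window is shown because pocket proteins act through E2F and because of an exact match to the E2F strings given above. Among 9 windows of 6 members no other held such a match, which is in 2.28% of the 32544 windows.
Rbl1, chr2:157204485-157204784, minus strand: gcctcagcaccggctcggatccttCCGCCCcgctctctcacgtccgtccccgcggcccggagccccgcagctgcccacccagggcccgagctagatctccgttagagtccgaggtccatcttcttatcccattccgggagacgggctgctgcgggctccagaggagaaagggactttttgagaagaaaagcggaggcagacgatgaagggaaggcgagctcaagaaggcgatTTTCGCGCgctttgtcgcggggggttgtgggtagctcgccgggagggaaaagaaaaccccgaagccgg
Capitals mark the E2F match TTTCGCGC at bases 233 to 240 of the window and a GC box on the other strand at bases 25 to 30. The E2F match starts 18 bases before the RefSeq start, a position given as -18.

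Rbl2 (ENSMUSG00000031666; GRCm38 chr8:91070057-91123844, plus strand), which encodes p130, the pocket protein known for quiescent cells, was at the limit of detection. It had 0 and 1 UMIs in sham and 2 and 0 UMIs in tenotomy, and a count of 3 corresponded to 13.1 and 13.6 CPM on the TMM scale in the sham libraries and 7.80 and 6.08 CPM in the tenotomy libraries. A difference in Rbl2 was not detectable at this depth. Its promoter window (chr8:91069807-91070106) holds the cell cycle homology element TTTGAA on the reverse strand, a motif in 17.8% of the windows.

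The strand setting of the counting is not stated in the sources, so reads where genes overlap on opposite strands cannot be assigned. Exons of Ccnd1, Ccnd3, Rb1 and Rbl2 overlap exons of protein-coding genes on the other strand. For Ccnd1 this is LTO1, with 0, 2, 5 and 4 UMIs, and for Ccnd3 it is Bysl, with 9, 2, 20 and 31 UMIs. For Rb1 these are Rcbtb2, with 5, 8, 25 and 35 UMIs, and Lpar6, with 3, 4, 8 and 2 UMIs, and for Rbl2 it is Aktip, with 10, 7, 27 and 35 UMIs. The counts of Ccnd3 and Rb1 are of the same order as those of these neighbours, the few UMIs of Rbl2 are fewer than those of Aktip, and all 3 are uncertain for that reason, whereas Cdkn1b and Cdkn2c overlap no other gene. Exons of Ccnd2, Cdkn1a and Cdkn1c overlap exons of antisense or unconfirmed transcripts on the other strand. Those transcripts are absent from the deposited counts, so their effect on these members is not known. 3 pairs of members share a chromosome, Ccnd1 and Cdkn1c on chromosome 7 at 1.47 Mb apart, Ccnd2 and Cdkn1b on chromosome 6 at 7.77 Mb, and Ccnd3 and Cdkn1a on chromosome 17 at 18.4 Mb, and in none of the pairs did both genes pass the test.

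Both kinases that partner the D cyclins rose, where 25.8% of all tested genes rose. Cdk4, the main kinase partner, had 36 and 35 UMIs in sham and 149 and 189 in tenotomy (log2 fold change 1.29, SE 0.19, adjusted p = 4.8e-05). Cdk6, its close relative, had 20 and 15 UMIs in sham and 155 and 143 in tenotomy (2.14, SE 0.26, adjusted p = 5.9e-06). Both were higher in each tenotomy library and passed the threshold under every alternative run. There were 1.10 and 1.11 UMIs of Cdk4 and Cdk6 per D cyclin UMI in sham and 1.74 and 1.89 in tenotomy, and 11.3 and 10.7 inhibitor UMIs per kinase UMI in sham against 2.66 and 2.93 in tenotomy.

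Of 54 other gene names of the pathway in 8 lists, 53 were in the table and 42 had enough counts to be tested. The 1 name not found was Skp1, another name of Skp1a, which was in the table and tested. By the same edgeR test, 26 of the 42 rose and 2 fell, where 25.8% of all tested genes rose and 26.3% fell. The median log2 fold change of the 42 was 1.12, beside 0.51 for the 7 tested members and 0.051 for all tested genes. Of the 42 genes, 23 passed the filter on low counts through the tenotomy libraries only, so that these counts partly follow from the filter. Of the 17 that both sham libraries carried over it, 7 rose and 2 fell, beside 708 higher and 1893 lower of 5187 such genes among all tested. The median log2 fold change of these 17 was 0.42, beside 0.33 for the 6 such members and -0.27 for all such genes. With abundance offsets 19 of the 42 rose and 2 fell, and in counts per tube 37 rose and 0 fell. Of the remaining Ink4 inhibitors only Cdkn2d, which encodes p19, had enough counts to be tested, and it did not pass (13, 8, 20 and 35 UMIs, log2 fold change 0.42, adjusted p = 0.40). Cdkn2a had 0 and 1 UMIs in sham and 6 and 9 in tenotomy, and Cdkn2b had 2 and 0 against 8 and 12, and neither could be tested.

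Beside 25.8% of all tested genes, 3 of 6 tested genes rose in a list of ubiquitin ligase genes that includes those acting on p27. These were Cks1b, the cofactor of the ubiquitin ligase that takes p27 (8, 15, 85 and 105 UMIs, log2 fold change 2.08, adjusted p = 2.6e-05), Skp2, its substrate receptor (2, 2, 21 and 26 UMIs, 2.54, adjusted p = 0.0012), and Rbx1, a RING subunit (31, 36, 106 and 98 UMIs, 0.65, adjusted p = 0.028). Skp1a, Cul1 and Fbxw7 did not pass. Skp2 was not past the threshold with abundance offsets (1.14, adjusted p = 0.17), nor was Rbx1 by DESeq2 (adjusted p = 0.17), without sham replicate 1 (0.52, adjusted p = 0.15) or without tenotomy replicate 1 (0.43, adjusted p = 0.19). Skp2 and Cks1b passed the filter on low counts through the tenotomy libraries only. The transcript of Cdkn1b itself, as given above, did not differ past the threshold on the TMM scale.

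Among E2F and DP factors, the partners of the pocket proteins, 3 of 8 tested genes rose and 2 fell, beside 25.8% higher and 26.3% lower of all tested genes. The 3 that rose passed the filter on low counts through the tenotomy libraries only. E2f2, an activator, had 10 and 3 UMIs in sham and 51 and 83 in tenotomy (log2 fold change 2.38, adjusted p = 1.1e-04), and E2f8, an atypical repressor expressed in cycling cells, had 3 and 0 against 19 and 46 (adjusted p = 9.0e-04). E2f4, which works with Rbl1 and Rbl2, had 8 and 19 UMIs against 43 and 75 (1.15, adjusted p = 0.012), and without sham replicate 1 it did not pass (adjusted p = 0.16). E2f5 (16, 11, 13 and 15 UMIs) fell by 0.90 on the log2 scale (adjusted p = 0.071) and Tfdp2 (22, 36, 22 and 47 UMIs) fell by 0.72 (adjusted p = 0.076) under TMM, with values of 0.052 and 0.25 in counts per tube, which are -0.96 and -0.76 relative to the median of all tested genes there, and neither passed with library sizes alone (adjusted p = 0.21 and 0.26) or by DESeq2 (0.37 and 0.29). With the replicate number as a block E2f5 also missed the threshold (adjusted p = 0.10). Without sham replicate 1 E2f5 was at -0.64 (adjusted p = 0.36), and Tfdp2 was at -0.30 (adjusted p = 0.59) without sham replicate 2 and at -0.42 (adjusted p = 0.34) without tenotomy replicate 1. E2f3, E2f6 and Tfdp1 did not pass the threshold.

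Downstream of E2F, 13 of 14 tested S phase target genes rose, beside 25.8% of all tested genes. But 10 of the 14 passed the filter on low counts through the tenotomy libraries only. Of the 4 carried over it by both sham libraries, 3 rose (Mcm4, Mcm7 and Rrm1) and Pcna did not pass. Among all genes so carried, 708 of 5187 rose. Mcm4 moved from 0.76 to 0.44 (adjusted p = 0.35) without sham replicate 2 and also missed the threshold by DESeq2 (adjusted p = 0.28), after thinning (0.19) and without tenotomy replicate 2 (0.17). Rrm2, a subunit of ribonucleotide reductase, had 5 and 8 UMIs in sham and 130 and 162 in tenotomy (3.51, SE 0.29, adjusted p = 1.8e-07). Mcm3, a subunit of the replicative helicase, had 5 and 3 against 38 and 46 (2.41, adjusted p = 2.8e-04), and Ccna2, the S phase cyclin, had 1 and 0 against 70 and 84 (adjusted p = 5.5e-07). Pcna, the replication clamp, was the exception, with 40 and 34 UMIs against 48 and 63 (log2 fold change -0.38, SE 0.22, adjusted p = 0.18). Of the 14, 11 rose with abundance offsets, 11 without sham replicate 2 and 10 by DESeq2.

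Both tested genes of the anaphase-promoting complex brake rose, beside 25.8% of all tested genes, but both passed the filter on low counts through the tenotomy libraries only. They were Fzr1, its G1 activator (7, 6, 28 and 37 UMIs, log2 fold change 1.35, adjusted p = 0.011), and Fbxo5, its inhibitor (1, 1, 24 and 29 UMIs, adjusted p = 1.9e-04). MuvB core subunits, which bind Rbl1 and Rbl2, were listed together with transcription factors. In that list 1 of 4 tested genes rose, near the 25.8% of all tested genes that rose. It was Foxm1 (1, 1, 16 and 15 UMIs, adjusted p = 0.0023), a transcription factor and not a core subunit. Foxm1 passed the filter on low counts through the tenotomy libraries only. Foxm1 turned to -0.062 with abundance offsets. E2f8, Fbxo5 and Ccne1 stayed above 0 with those offsets but did not pass (adjusted p = 0.24, 0.14 and 0.35), and Fzr1 did not pass by DESeq2 (adjusted p = 0.14). Of E cyclins, Cdk2 and CDK activators, 2 of 5 tested genes rose, beside 25.8% of all tested genes. They were Ccne1 (4, 1, 18 and 28 UMIs, log2 fold change 2.20, adjusted p = 0.0040) and Cdk2 (21, 15, 44 and 62 UMIs, 0.59, adjusted p = 0.096). Ccne1 passed the filter on low counts through the tenotomy libraries only, and of the 3 genes that both sham libraries carried over it 1 rose. Among all genes so carried, 708 of 5187 rose. Cdk2 missed the threshold with the replicate number as a block (adjusted p = 0.11), by DESeq2 (0.41), by limma-voom (0.105), with abundance offsets (0.16) and with no filter (0.13), among other alternatives. Without sham replicate 2 Cdk2 was at 0.40. The fitted changes of genes with 0 to 4 UMIs over the sham libraries depend on the prior count and are no bounds.

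**Figure D4:**
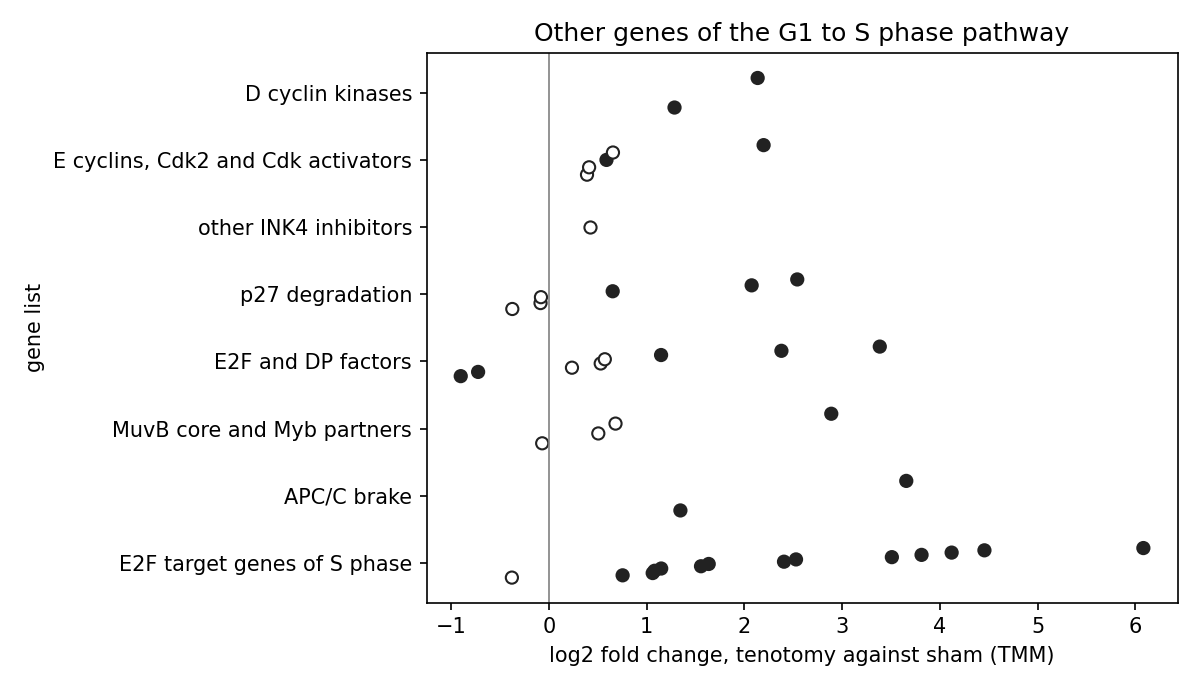
Log2 fold change of tenotomy against sham on the TMM scale for the 42 tested genes of 8 pathway lists, 1 point per gene, filled where the adjusted p was under 0.1. The D cyclin kinases and 13 of 14 E2F target genes lie to the right of 0 and filled, and the 2 filled points to the left of 0 are E2f5 and Tfdp2, which lie to the right of 0 in counts per tube, though below the median of all tested genes there.

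For each member with at least 100 UMIs, the 2 tested genes nearest in log2 CPM over the 4 libraries (Euclidean distance) were taken. Ccnd1 was nearest to Caprin1 (distance 0.17) and Rps27l (0.21), and Cdkn1a to Cd63 (0.31) and Ptma (0.34). Cdkn1b was nearest to Ssr1 (0.16) and Ccn2 (0.20), and Cdkn1c to Crip2 (0.35) and Hint1 (0.37). Cdkn2c was nearest to Tmem147 (0.13) and Capg (0.16), and Rb1 to Ubap2 (0.24) and Faf2 (0.24). With 4 libraries these are descriptions of levels, and no member was nearest to another member.

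Markers of other cells and of differentiation moved with the groups, and their part in the values of the members was not tested. All 7 markers of differentiating myocytes rose, from a summed 1136 and 761 CPM in sham to 3037 and 3021 CPM in tenotomy, with Acta1, skeletal muscle actin, the most abundant. Without sham replicate 2, 5 of them rose, and Acta1 (0.49, adjusted p = 0.16) and Ckm, muscle creatine kinase (0.51, adjusted p = 0.14), did not pass, and with abundance offsets 6 rose. Of the 7, 4 passed the filter on low counts through the tenotomy libraries only. Beside these and the marker counts that follow, 25.8% of all tested genes rose and 26.3% fell. Of 9 MuSC markers 6 fell and 2 rose on the TMM scale, with summed levels of 5750, 4951, 3931 and 3404 CPM and Sdc4 the most abundant, and Sdc4, among those that fell, turned to 0.12 with abundance offsets, under which 3 of the 9 were lower and 3 higher, and Pax7 (-0.22, adjusted p = 0.30) and Vcam1 (-0.051, adjusted p = 0.81) did not pass. In counts per tube Pax7, Sdc4 and Vcam1 had positive values (0.12, 0.028 and 0.055), which are -0.89, -0.98 and -0.96 relative to the median of all tested genes there. The 8 leukocyte markers summed to 2 and 5 UMIs in sham and 56 and 119 UMIs in tenotomy, with Lyz2 the most abundant (0, 0, 17 and 38 UMIs), and Lyz2, Adgre1, Csf1r, C1qa, Cd74 and Tyrobp at 0 in both sham libraries. The sort for YFP of the Pax7 lineage is a gate that would leave leukocytes out, and the Ccnd2 counts of 0, 3, 21 and 31 stand beside these sums.

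Other cell types were given by 3 further lists. Fibro-adipogenic markers summed to 3199, 3058, 2124 and 2001 CPM (1 of 5 tested genes higher and 3 lower, or 1 and 1 with abundance offsets), with Col1a1 the most abundant and Pdgfra, a defining marker, at 0, 0, 2 and 0 UMIs. Mural markers summed to 770, 693, 1191 and 1365 CPM (2 of 3 higher and 1 lower), with Acta2 the most abundant and Myh11 at 0, 0, 0 and 3 UMIs. Ly6a, the 1 fibro-adipogenic gene that rose on the TMM scale, and Rgs5, 1 of the 2 mural genes that rose, passed the filter on low counts through the tenotomy libraries only. Of the genes that both sham libraries carried over it, 0 of 4 fibro-adipogenic genes rose and 3 fell, and 1 of 2 mural genes rose and 1 fell. Among all genes so carried, 708 of 5187 rose and 1893 fell. Endothelial markers summed to 78.4, 72.5, 96.2 and 79.0 CPM, and Tek was the most abundant and the 1 gene tested. Tek was lower (log2 fold change -1.41, and -1.11 without tenotomy replicate 1), but not past the threshold by DESeq2 (adjusted p = 0.19). Below the filter, Cdh5 had 3, 1, 14 and 11 UMIs, or 13.1, 4.53, 36.4 and 22.3 CPM. Pecam1 had 4, 2, 11 and 7 UMIs, or 17.4, 9.06, 28.6 and 14.2 CPM. With at least 10 counts in every library of a group, 1 endothelial gene was higher and 1 lower. Cldn5 had 0 UMIs in both sham libraries. Of the genes in these lists that fell on the TMM scale, Dcn turned to 0.21 with abundance offsets, and Dcn and Tagln had values of 0.58 and 0.35 in counts per tube, which are -0.43 and -0.67 relative to the median of all tested genes there.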

How the data were processed

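The authors extracted barcodes and UMIs with UMI-tools (version 1.0.0), aligned reads to GRCm38 with HISAT2 (version 2.1.0), assigned them to genes with featureCounts (version 1.6.4) and deposited the UMI counts per gene and library, without normalization. Gene annotation release and strand setting are not given in the sources used here. All 4 libraries were used. The deposited counts were scaled by TMM and filtered with filterByExpr (minimum count 10, minimum total 15), and the 7228 genes kept were tested with glmQLFit and glmQLFTest of edgeR (version 4.0.16, R version 4.3.3) with Benjamini-Hochberg adjustment and a threshold of 0.1. The spread was estimated over both groups together. The biological coefficient of variation was 9.50%. Replicates of a group differed beyond sampling noise (chi-square per degree of freedom 1.31 in sham and 1.50 in tenotomy).

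The alternatives were UMIs per tube, abundance offsets, upper-quartile factors, size factors of DESeq2, library sizes alone, DESeq2 (version 1.42.0), limma-voom (limma version 3.58.1), no filter, at least 10 counts in every library of a group, an adjusted p of 0.05, the replicate block, thinning and leaving out each library, and, chosen after seeing the data, a count correction for repeated draws of 1 UMI among the 4096 that 6 bases allow. Members and lists were chosen with earlier results of these data known. All 10 members, list genes past the filter, and the 2 nearest genes of each member with 100 or more UMIs were named. Named list genes below the filter are Cdkn2a and Cdkn2b, which were described with their counts only, and markers given as UMIs. Counting used Python (version 3.11.15) and scipy (version 1.17.1). Gene coordinates are from the GRCm38 annotation, in which all 19353 identifiers were found, and promoter windows from RefSeq, with entries for 6 of the 10 members. Depth was 260488 to 483528 UMIs per library. The values of 1 marker list are not reported here.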

Additional observations from a re-analysis of the deposited data

How the results depend on the processing

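The counts depended on scaling and tool. In UMIs per tube 4481 genes were higher and 331 lower, and DESeq2 gave 967 and 1215, beside 1868 and 1898 in the main test. The higher genes were 49.6% of all called genes under TMM, 66.6% with library sizes alone and 93.1% in UMIs per tube, and the median log2 fold change of all tested genes was 0.051, 0.33 and 1.01, and 0.15 with upper-quartile factors. Of the members, 5 rose instead of 3 with library sizes alone, with abundance offsets and with no filter, and 6 in UMIs per tube, 4 with at least 10 counts in every library of a group, and 2 by DESeq2 and after thinning, and 0 instead of 1 fell in UMIs per tube and with abundance offsets. The 2 by DESeq2 were Ccnd2 and Rbl1, so that Ccnd1 and Cdkn2c were lost there, and the 2 after thinning were Ccnd1 and Ccnd2.

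Cdkn1a reversed to 0.26 in UMIs per tube and 0.39 with abundance offsets. Cdkn1b reversed to 0.22 with library sizes alone, 0.039 with upper-quartile factors, 0.90 in UMIs per tube, 0.61 with abundance offsets and 0.024 with no filter, and ranged from -0.25 to 0.17 when 1 library was left out. Cdkn1c ranged from -0.15 to 0.53 when 1 library was left out. Library sizes alone, upper-quartile factors and UMIs per tube move all genes alike, and relative to the median of all tested genes Cdkn1b stayed at -0.11, -0.11 and -0.12, beside -0.11 under TMM. The cause of the other changes was not tested.

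Ccnd1 kept its direction and its side of the threshold under 15 of 17 alternatives, Ccnd2 under 16, Cdkn1a under 15 and Cdkn2c under 14. Cdkn1a passed in the opposite direction with abundance offsets (adjusted p = 0.015). Cdkn1c passed with library sizes alone (0.42, adjusted p = 0.059), and in UMIs per tube (1.10) and with abundance offsets (0.86). Rb1 passed with library sizes alone (0.78, adjusted p = 0.075) and in UMIs per tube (1.47), and was at 1.12 without sham replicate 2. Relative to the median of all tested genes, Cdkn1c was at 0.096 with library sizes alone and 0.091 in UMIs per tube, beside 0.097 under TMM. Rb1 was at 0.45 in both, beside 0.46 under TMM. Ccnd2 ranged from 2.09 to 7.46 when 1 library was left out. The upper value comes from a sham group with no Ccnd2 UMI and is no bound. The number of members that rose ranged from 2 to 3 when 1 library was left out.

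With the replicate block Ccnd1 gave 0.68 and Cdkn1a -0.71, with 1806 genes higher and 1864 lower, and no call among the members changed. Of the pathway genes 25 rose and 1 fell with the block, beside 26 and 2, since Cdk2 and E2f5 missed the threshold. Deviations of same-numbered libraries correlated at -0.034, and the sources do not say that a number marks a shared animal, so the numbers were not taken to pair the samples. In other experiments of the paper the sham muscle was the contralateral muscle, so sham and tenotomy libraries may share mice. For these libraries that is not stated. Of the differences in shares (tenotomy minus sham, in percentage points), that of Rbl1 was 22.1 and ranged from 10.7 to 33.5 when 1 library was left out, that of Rb1 was -22.0 and -12.9 without tenotomy replicate 2, those of Cdkn1c and Cdkn1b were 7.10 and 3.81 and 4.25 and 2.46 without sham replicate 2, that of Ccnd3 was 2.94 and 1.48 after thinning, and that of Rbl2, with 3 UMIs, changed sign. Depth limits Ccnd3, Rbl1 and Rbl2, which have 3 to 44 UMIs over the 4 libraries.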
